A study of Mus musculus with 18 samples.

Results

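The regulators of G protein signalling described here are 10 genes of the Rgs family: Rgs2, Rgs3, Rgs4, Rgs5, Rgs10, Rgs12, Rgs14, Rgs16, Rgs17 and Rgs19. They were taken by symbol from the 55335 gene identifiers of the count tables, and each symbol matched 1 identifier. The family was picked by a value measured in these same libraries, namely that the level of Rgs4 at d2.5 was lower with FGF2 and not lower when Yap and Taz were also knocked down, so the d2.5 values of Rgs4 are given as a description without a test. The other 9 members came with it as a given list, drawn up with earlier results of these data known, and 14 further genes with Rgs symbols were not on that list.

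The measurements come from bulk RNA-seq of O9-1 cells, a mouse neural crest (NC) line derived from the head of E8.5 embryos and labelled wild type, grown in osteoblast differentiation medium. The 3 conditions were sampled at d2.5 and again at d5, with 3 libraries of each, 18 in all. Ctrl+vehicle cells received a scrambled siRNA and no FGF2, Ctrl+FGF2 cells the same siRNA with FGF2, and Y/T dKD+FGF2 cells siRNA pools against both Yap and Taz together with FGF2. Every group thus carried an siRNA, and no knockdown group without FGF2 was among the samples, so the effect of the knockdown is known here only in the presence of FGF2. The labels call each day a batch of its own, which means that day and batch cannot be told apart and that groups were compared within a day. Nothing in the labels says that replicates came from separate cultures, so p-values measure the spread between these libraries, which may be technical.

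Receptors coupled to G proteins act by making the G alpha subunit exchange GDP for GTP, after which G alpha and the G beta-gamma pair both act on effectors such as adenylyl cyclases and phospholipase C beta. RGS proteins end this state by speeding up the hydrolysis of GTP on G alpha, and several RGS genes are themselves switched on by the signals they damp, which makes them part of feedback loops. FGF receptors are receptor tyrosine kinases that signal mainly through the ERK cascade, and Yap and Taz are transcriptional coactivators that work with TEAD factors. The members fall into 3 subfamilies: the small R4 proteins, which act on Gi and Gq subunits (Rgs2, Rgs3, Rgs4, Rgs5 and Rgs16), the R12 group (Rgs10, and the larger scaffold proteins Rgs12 and Rgs14) and the RZ group, which acts on Gi and Gz subunits (Rgs17 and Rgs19).

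The libraries held between 10377151 and 14698525 counts on genes, and levels are given in CPM, the counts scaled to a common library size. The siRNA targets followed their labels: at d2.5 the Y/T dKD+FGF2 libraries held 51.5% of the Yap1 level and 60.8% of the Wwtr1 level (the gene of Taz) of Ctrl+FGF2, and at d5 46.0% and 57.5%. FGF2 itself moved Wwtr1 at d2.5, from 140 to 221 CPM, so that its level after the knockdown, 135 CPM, was near that of Ctrl+vehicle. The label NC was checked against markers. Of 10 listed NC genes 6 reached 1 CPM in some library, but the defining early NC factors Sox10 and Foxd3 were at 0 in every library, while mesenchyme (4 of 4) and osteoblast markers (6 of 6) were present. Because these are bulk samples, fewer cells of a type and less RNA per cell cannot be told apart.

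The genes lie on 7 chromosomes (GRCm38, GENCODE M21). Rgs2 lies at chr1:143999338-144004161 on the minus strand and Rgs16 at chr1:153740349-153745468 on the plus strand. Rgs4 (chr1:169741477-169747642, minus strand) and Rgs5 (chr1:169655501-169695813, plus strand) are neighbours separated by 45663 bases. Rgs3 spans chr4:62559847-62704001, Rgs12 chr5:34949445-35039644 and Rgs14 chr13:55369732-55384687, each on the plus strand. On the minus strand are Rgs10 at chr7:128373621-128418758, Rgs17 at chr10:5825663-5922400 and Rgs19 at chr2:181688419-181693977. Annotated transcripts on the opposite strand overlap 467 exon bases of Rgs12 (Gm43791) and 236 of Rgs16 (Gm28513), and the counts used were those of 1 strand.

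For the R4 members with the largest differences at d5, Rgs2, Rgs4 and Rgs16, the 230 bases from 250 to 21 before the start site are shown, 5′ to 3′ on the strand of the gene, from RefSeq on GRCm38.p6. They lie at chr1:144004170-144004399 (minus strand), chr1:169747663-169747892 (minus strand) and chr1:153740103-153740332 (plus strand). Capitals mark matches, on either strand, to any of 6 motifs. TEAD factors bind GGAATG and the AP-1 factors such as Fos and Jun bind TGANTCA. The ETS factors, which include targets of ERK, bind CCGGAAGT. The full CRE, bound by factors that respond to cyclic AMP, is TGACGTCA, and its half-site TGACG lies inside it. The last is the TATA box, searched as TATAAA.
Rgs2: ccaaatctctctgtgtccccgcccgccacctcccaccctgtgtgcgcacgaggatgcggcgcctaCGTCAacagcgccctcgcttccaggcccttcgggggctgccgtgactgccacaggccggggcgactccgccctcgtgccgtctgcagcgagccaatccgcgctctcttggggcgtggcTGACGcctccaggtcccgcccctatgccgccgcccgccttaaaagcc
Rgs4: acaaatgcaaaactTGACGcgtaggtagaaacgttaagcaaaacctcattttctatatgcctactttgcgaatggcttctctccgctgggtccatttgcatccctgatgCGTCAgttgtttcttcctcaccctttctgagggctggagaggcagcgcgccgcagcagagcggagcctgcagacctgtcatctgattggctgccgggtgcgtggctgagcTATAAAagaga
Rgs16: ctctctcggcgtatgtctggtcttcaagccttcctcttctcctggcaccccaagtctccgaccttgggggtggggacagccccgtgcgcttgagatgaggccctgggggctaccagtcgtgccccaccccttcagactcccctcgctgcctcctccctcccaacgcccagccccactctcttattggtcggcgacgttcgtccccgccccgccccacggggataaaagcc

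The windows of Rgs2 and Rgs4 each held the CRE half-site at 2 positions, once on either strand. Those of Rgs2 began 185 and 67 bases before the start site and those of Rgs4 236 and 141 bases before it. Rgs4 also held TATAAA 31 bases before its start. The window of Rgs16 held none of the 6 motifs, which says only that these letters are not in it. Over the 13 windows of 250 bases that RefSeq gives for 9 members (Rgs3 and Rgs12 have 2 each and Rgs19 has 3), the TEAD, ETS and full CRE motifs were found in 0. Of all 32817 such windows, 12.6%, 2.88% and 1.55% hold them. At these shares 13 windows are too few for a count of 0 to show a lack of the motif. The CRE half-site was in 3 of the 13 (17.7% of all windows), TATAAA in 3 (12.4%), both of the other 2 being those of Rgs3, and TGANTCA in 2, of Rgs12 and Rgs17 (6.75%). These matches are a description of letters and not of bound sites.

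The member with the highest level differed between the days and, at d2.5, between the groups without and with FGF2. Levels between genes are compared only per length, as CPM per kilobase of exon. The length joins all annotated exons of a gene, 10801 bases for Rgs3 against 1711 for Rgs10. Which isoforms were made was not measured. A gene whose transcripts are shorter than that length is placed too low, so the order and the shares hold only for this measure. In Ctrl+vehicle at d2.5 the highest was Rgs19, at 12.8 ± 0.364 (SD, n = 3), followed by Rgs10 at 9.11 ± 0.322. Rgs16 (4.79) and Rgs3 (4.68) came next with overlapping ranges, then Rgs4 (3.73) and Rgs12 (3.40), which also overlapped, and then Rgs2 (2.27), Rgs17 (0.749), Rgs5 (0.121) and Rgs14 (0). With FGF2 at d2.5 the order opened with Rgs16 at 20.2 ± 0.510, which alone made 41.6% of the summed level of the 10 genes, ahead of Rgs19 at 13.8 ± 1.02 and Rgs10 at 5.83 ± 0.697. Rgs4 stood behind 6 others there, at 1.25 ± 0.0942. With the knockdown it stood at 3.98 ± 0.200, behind Rgs16 (24.4), Rgs19 (12.9) and Rgs10 (5.59).

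By d5 the family was led by Rgs10 in every group, at 47.9 ± 2.72, 49.4 ± 1.98 and 51.6 ± 2.63 per kilobase in the vehicle, FGF2 and knockdown groups. Rgs4 was the next in Ctrl+vehicle, at 11.7 ± 0.238, ahead of Rgs19 (10.3) and Rgs2 (9.67), whose ranges overlapped. In both FGF2 groups Rgs2 took the place behind Rgs10, at 25.8 ± 2.92 and 29.2 ± 3.51, and Rgs4 followed at 8.54 ± 1.04 and 12.4 ± 0.919. Rgs19 and Rgs16 overlapped in both (7.42 against 7.33 without the knockdown, 8.11 against 7.81 with it). The summed level of the 10 genes was 41.7, 48.6 and 54.4 at d2.5 and 89.2, 108 and 120 at d5, in the same order of groups. As day and batch coincide, the differences between days have no test.

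**Figure D1:**
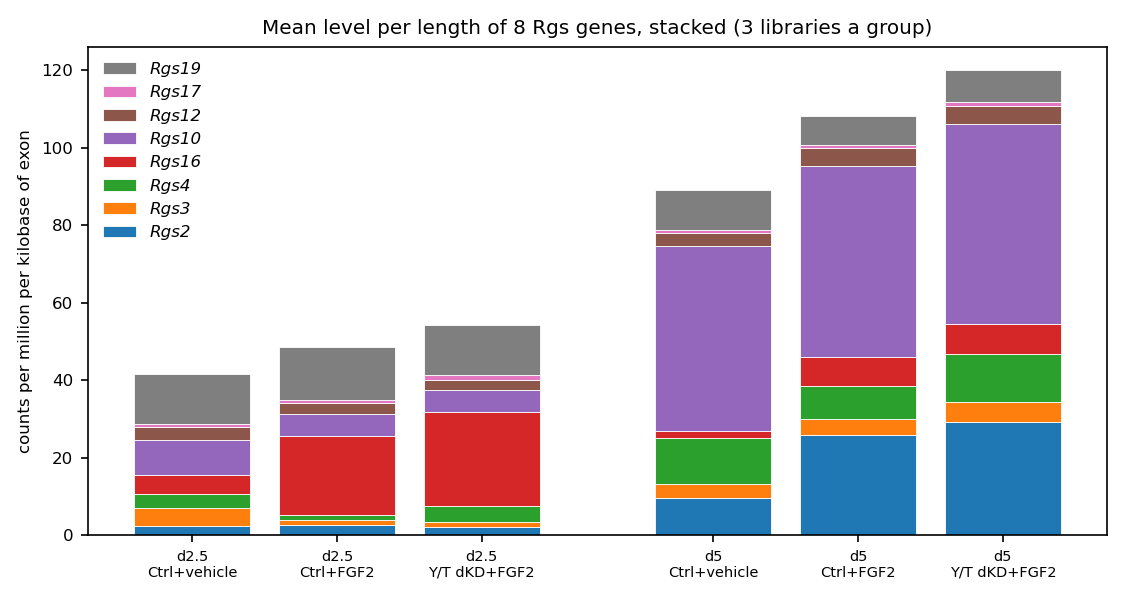
Mean level per length (CPM per kilobase of exon, y axis) of the 8 Rgs genes that passed the filter on low counts, stacked, in the 6 groups (x axis, 3 libraries each). Rgs16 and Rgs19 make up most of the FGF2 bars at d2.5, and Rgs10, at 47.9 to 51.6, most of each bar at d5 together with Rgs2 in the FGF2 groups.

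Between d2.5 and d5 the CPM of Rgs2 was 4.26-fold higher in Ctrl+vehicle, 10.4-fold higher in Ctrl+FGF2 and 14.5-fold higher in Y/T dKD+FGF2. Rgs10 was 5.25-fold, 8.47-fold and 9.25-fold higher at d5, and Rgs4 3.14-fold, 6.83-fold and 3.11-fold higher. Rgs16 went the other way, with levels 2.72-fold, 2.76-fold and 3.12-fold lower at d5. The osteoblast markers, summed over the list of 6, lay at 13234 to 13393 CPM in the Ctrl+vehicle libraries at d2.5 and at 31072 to 33086 at d5. Nearly all of this sum is the collagen gene Col1a1, with means of 12623 and 31886 CPM, and 3 others on the list had the lower mean at d5, Sp7 (182 and 35.7 CPM), Ibsp (206 and 114 CPM) and Runx2 (164 and 137 CPM). The part of these markers in the differences was not tested.

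The first comparison asks what FGF2 did to the family at d2.5. Apart from Rgs4, 7 members passed the filter on low counts. Of these, Rgs16 rose and Rgs3, Rgs10 and Rgs12 fell, while Rgs2, Rgs17 and Rgs19 did not pass the test. That is 4 called genes, in a contrast in which 67.6% of the 13677 genes tested were called, 33.5% higher and 34.1% lower, so the share among the members is near that of genes at large. Their median log2 fold change was 0.09, against 0.0022 over all genes tested.

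Rgs16, an R4 protein that acts on Gi and Gq subunits, was at 11.58, 10.96 and 11.04 CPM in the Ctrl+vehicle libraries and at 45.95, 48.28 and 47.55 CPM in the Ctrl+FGF2 libraries. The lowest FGF2 library was thus far above the highest vehicle library. The log2 fold change was 2.07 ± 0.07 (SE), a 4.18-fold rise (adjusted p = 2.30e-22). Rgs3, whose gene also encodes long isoforms with a PDZ domain, fell from 44.82, 56.16 and 50.57 CPM to 16.75, 15.71 and 16.23 CPM. The 3 vehicle libraries spread more widely than the FGF2 libraries, and the groups were well apart. This was a log2 fold change of -1.65 ± 0.08, 3.14-fold lower (adjusted p = 2.14e-18).

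Rgs10, the smallest R12 protein and a regulator of Gi subunits, fell from 15.03, 15.60 and 16.14 CPM to 8.65, 10.98 and 10.28 CPM (log2 fold change -0.66 ± 0.10, adjusted p = 9.96e-07). The FGF2 libraries varied more than the vehicle libraries but stayed below them. Rgs12, the scaffold protein that also binds Ras and Raf family members, changed least of the called members, from 28.07, 28.50 and 29.96 CPM to 21.39, 23.70 and 23.91 CPM (log2 fold change -0.34 ± 0.07, adjusted p = 7.05e-05). For the members that did not pass, the values were 0.11 ± 0.11 for Rgs2 (adjusted p = 0.362), 0.09 ± 0.13 for Rgs17 (adjusted p = 0.548) and 0.09 ± 0.06 for Rgs19 (adjusted p = 0.203). The libraries of the 2 groups did not overlap for Rgs2, yet the gap was small, with 7.72 to 8.62 CPM against 8.68 to 9.53 CPM.

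Rgs4, which damps Gi and Gq signals and is known from neurons, heart and mural cells, was the gene the family was picked for. Its level was 10.14, 12.19 and 12.35 CPM in Ctrl+vehicle at d2.5, 4.08, 3.999 and 3.54 CPM with FGF2 and 12.16, 11.81 and 13.02 CPM with FGF2 and the knockdown. All 3 Ctrl+FGF2 libraries lay below all 6 others, and the other 2 groups overlapped. As log2 fold changes these levels give -1.59 ± 0.13 for FGF2, 1.66 ± 0.13 for the knockdown and 0.07 ± 0.10 between Y/T dKD+FGF2 and the vehicle group.

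Marker lists also differed between these groups at d2.5, not all in the same direction. The NC list summed to 391 to 420 CPM in Ctrl+vehicle, 228 to 240 CPM in Ctrl+FGF2 and 204 to 215 CPM in Y/T dKD+FGF2. The mesenchyme list summed to 4953 to 5347, 6777 to 6858 and 6822 to 6934 CPM. Most of that sum is Vim (3427, 5378 and 5305 CPM), and of the 4 mesenchyme genes FGF2 raised 1 and lowered 2. The summed level of the osteoblast list was 13234 to 13393 CPM in Ctrl+vehicle, 2296 to 2424 CPM in Ctrl+FGF2 and 2161 to 2296 CPM in Y/T dKD+FGF2, again mostly Col1a1. Of its 5 tested genes all 5 fell with FGF2, while the knockdown raised 2 and lowered 1, with Ibsp at 206, 41.0 and 78.7 CPM and Sp7 at 182, 26.1 and 36.0 CPM in the 3 groups. The summed level of the mural cell list, of which 6 of 10 genes reached 1 CPM, was 518 to 596, 191 to 201 and 163 to 172 CPM. Neuron markers (4 of 6 at 1 CPM, with Rbfox3 at 0 in every library) were at 45.4 to 48.0, 10.6 to 12.1 and 13.5 to 15.6 CPM. That sum is mostly Stmn2 (44.5, 8.69 and 10.3 CPM), while Snap25 had means of 0.166, 0.865 and 1.93 CPM, and of the 3 neuron genes tested 1 rose and 1 fell with FGF2. Glial, endothelial, blood and epithelial lists summed to no more than 6.18 CPM in any library at d2.5. The part of these cell types in the values of the Rgs genes was not tested.

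**Figure D2:**
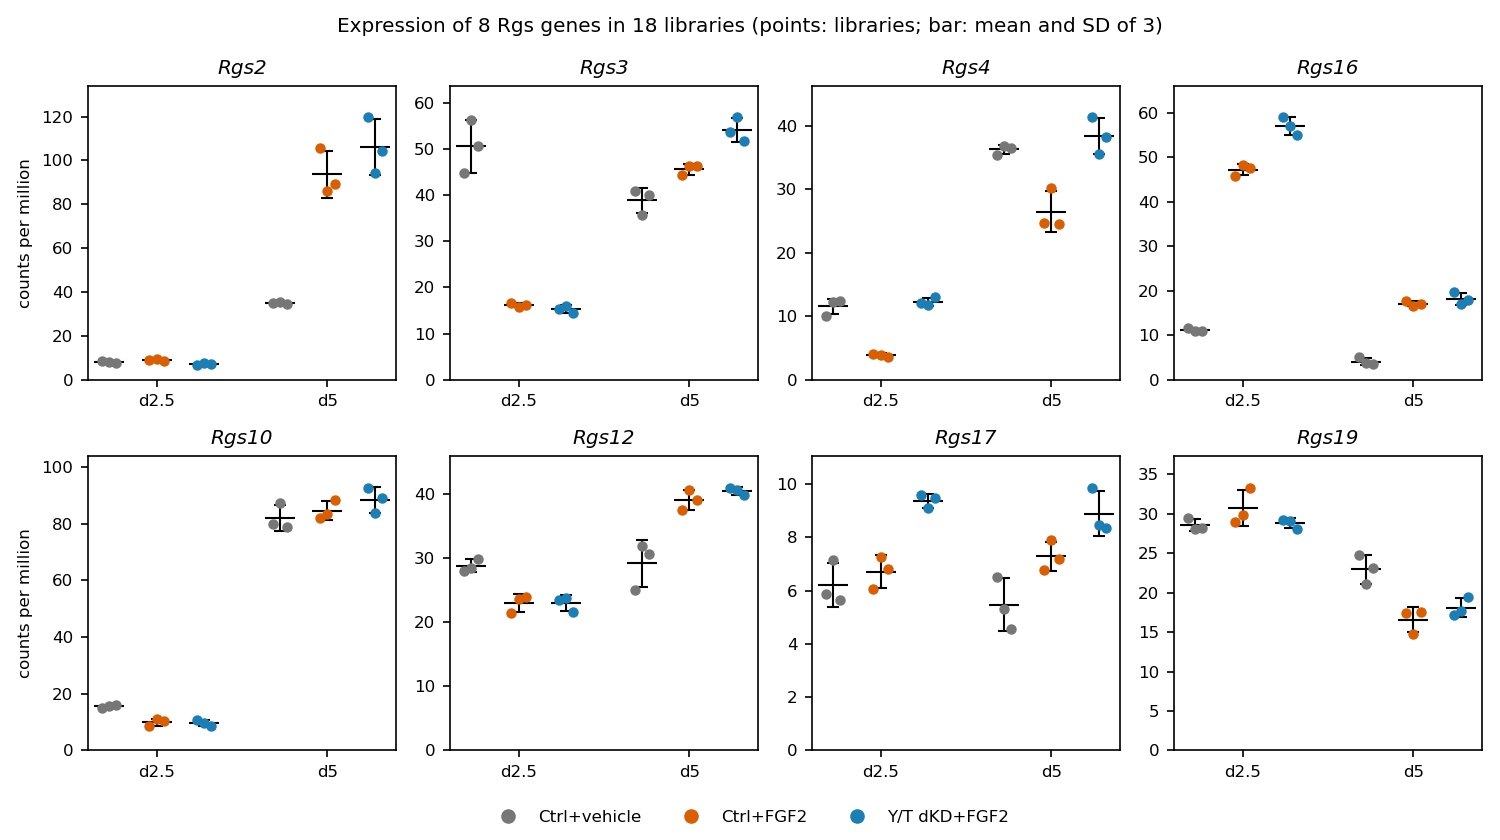
CPM (y axis, from 0) of 8 Rgs genes in each of the 18 libraries, by day (x axis) and condition (colour), with the mean and SD of 3 libraries as bars. The Ctrl+FGF2 points of Rgs4 lie below both other groups on either day, those of Rgs16 lie above Ctrl+vehicle on either day, and Rgs2 separates by FGF2 at d5.

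The next comparison is the knockdown of Yap and Taz under FGF2 at d2.5. Of the 7 tested members other than Rgs4, 2 were called, Rgs16 and Rgs17, and both rose. In this contrast 24.5% of genes were called, 10.8% higher and 13.6% lower, so the share among the members is near that of genes at large. The count became 4 without the first or the second Ctrl+vehicle library, where Rgs2 was also called and Rgs5, which is too low for the reported fit, was tested and called. Rgs5 passed the filter there through the libraries in which it is high, so its call is a description and adds no support. The median log2 fold change of the 7 was -0.07, against 0.0013 over all genes tested. Rgs16, already raised by FGF2, went from 45.95, 48.28 and 47.55 CPM to 58.99, 57.11 and 55.14 CPM, a log2 fold change of 0.26 ± 0.05 (adjusted p = 0.000269). Rgs17, an RZ protein that acts on Gi and Gz, went from 6.05, 7.27 and 6.81 CPM to 9.60, 9.09 and 9.47 CPM (0.47 ± 0.12, adjusted p = 0.00411). In both cases the lowest knockdown library was above the highest Ctrl+FGF2 library.

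Rgs2, which prefers Gq, sat at the threshold in this contrast. Its levels were 8.87, 9.53 and 8.68 CPM in Ctrl+FGF2 and 6.70, 7.93 and 7.34 CPM in Y/T dKD+FGF2, with no overlap. The log2 fold change of -0.31 ± 0.12 missed the threshold (adjusted p = 0.0508) and was called in 6 of 18 alternative settings, among them the fits without the first or the second Ctrl+vehicle library (adjusted p = 0.0435 and 0.0485) or without the second Y/T dKD+FGF2 library (adjusted p = 0.0378). The remaining members, Rgs3, Rgs10, Rgs12 and Rgs19, had log2 fold changes from -0.10 to -0.01, none of them called. Rgs3, Rgs10 and Rgs12, the genes that fell with FGF2, thus had no detectable difference with the knockdown.

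Set against Ctrl+vehicle at d2.5, the Y/T dKD+FGF2 libraries had 5 of the 7 tested members other than Rgs4 called, where 69.8% of all genes were called, 34.1% higher and 35.7% lower. Rgs16 (2.33 ± 0.07) and Rgs17 (0.56 ± 0.12, adjusted p = 0.000153) were higher. Rgs3 (-1.74 ± 0.08), Rgs10 (-0.73 ± 0.10) and Rgs12 (-0.35 ± 0.07) were lower. Rgs2 (-0.19 ± 0.12, adjusted p = 0.146) and Rgs19 (-0.01 ± 0.07, adjusted p = 0.911) were not called. This contrast shares its libraries with both others, so the 3 are not independent.

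At d5 FGF2 moved most of the family. Here Rgs4 was tested, since the rule that picked it named only its d2.5 values. Rgs2, Rgs3, Rgs12, Rgs16 and Rgs17 rose and Rgs4 and Rgs19 fell, while Rgs10 did not pass the test. Of the 8 members tested, 7 were called, where 47.2% of 13304 genes were called, 23.5% higher and 23.7% lower. As the list was drawn up with earlier results of these data known, this count is a description. The median log2 fold change of the 8 was 0.34, against 0.016 over all genes tested.

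Rgs2 was at 35.06, 35.38 and 34.80 CPM in Ctrl+vehicle at d5, and in Ctrl+FGF2 at 105.78, 86.07 and 89.20 CPM. The vehicle libraries were almost equal, while the first FGF2 library stood above the other two. The log2 fold change was 1.43 ± 0.09, a 2.69-fold rise (adjusted p = 8.99e-10). Rgs16 rose by about as much as at d2.5, from 5.12, 3.75 and 3.50 CPM to 17.72, 16.60 and 17.14 CPM (2.08 ± 0.13, 4.23-fold, adjusted p = 9.96e-10). These 2 were the members with a change of more than 2-fold by FGF2 at d5.

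Rgs4 was at 35.46, 36.88 and 36.50 CPM in Ctrl+vehicle at d5 and at 24.70, 30.18 and 24.50 CPM in Ctrl+FGF2. All FGF2 libraries were below all vehicle libraries, the second of them by the least. The log2 fold change was -0.44 ± 0.08, 1.36-fold lower (adjusted p = 0.000249). Rgs19, also known as GAIP and a regulator of Gi subunits, fell from 24.71, 21.06 and 23.14 CPM to 17.45, 14.72 and 17.50 CPM (-0.46 ± 0.09, adjusted p = 0.000549).

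Smaller rises at d5 were seen for Rgs12, from 25.01, 31.97 and 30.58 CPM to 37.55, 40.59 and 39.12 CPM (0.43 ± 0.07, adjusted p = 0.000132), and for Rgs3, from 40.88, 35.72 and 40.00 CPM to 44.26, 46.21 and 46.30 CPM (0.25 ± 0.06, adjusted p = 0.00355). Both genes had fallen at d2.5. Rgs17 went from 6.53, 5.33 and 4.57 CPM to 6.79, 7.89 and 7.18 CPM (0.44 ± 0.15, adjusted p = 0.0235). This call was lost with DESeq2 (adjusted p = 0.113) and without the second Ctrl+vehicle library (adjusted p = 0.0575), the third (adjusted p = 0.125) or the second Ctrl+FGF2 library (adjusted p = 0.0854). Rgs10, the most abundant member per length, was at 78.75 to 87.25 CPM in Ctrl+vehicle and 81.81 to 88.30 CPM in Ctrl+FGF2, with a log2 fold change of 0.06 ± 0.05 (adjusted p = 0.418).

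**Figure D3:**
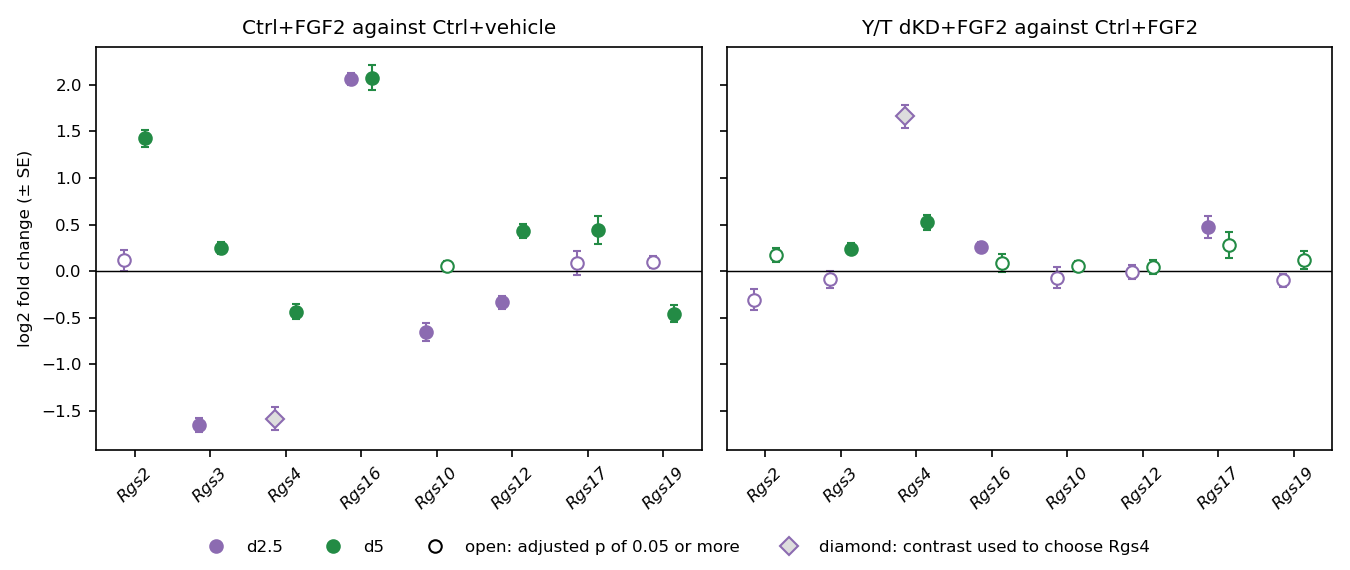
Log2 fold change with its SE (y axis) of 8 Rgs genes (x axis) for FGF2 (left) and for the Yap and Taz knockdown under FGF2 (right), at d2.5 and d5. Filled points passed an adjusted p of 0.05, open points did not, and diamonds mark the contrasts for which Rgs4 was picked. Rgs16 sits at 2.07 and 2.08 for FGF2 on the 2 days, and Rgs3 at -1.65 and 0.25.

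With the knockdown at d5, Rgs4 and Rgs3 rose and none of the 6 other tested members was called. That is 2 of 8, where 31.7% of all genes were called, 15.6% higher and 16.1% lower. Their median log2 fold change was 0.15, against 0.0034 over all genes tested. Rgs4 went from 24.70, 30.18 and 24.50 CPM in Ctrl+FGF2 to 41.30, 35.61 and 38.26 CPM in Y/T dKD+FGF2, without overlap (0.53 ± 0.08, 1.44-fold higher, adjusted p = 6.86e-05). Against Ctrl+vehicle, the Y/T dKD+FGF2 level of Rgs4 differed by a log2 fold change of 0.09 ± 0.08, which was not called (adjusted p = 0.395). The direction of the Rgs4 levels at d2.5, lower with FGF2 and higher with the knockdown, was therefore also the direction of both tests at d5, and both fold changes were smaller. Both d5 tests share the Ctrl+FGF2 libraries, so they are not independent of each other.

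Rgs3 rose with the knockdown at d5 from 44.26, 46.21 and 46.30 CPM to 53.62, 56.78 and 51.80 CPM (0.24 ± 0.06, adjusted p = 0.00471), adding to its rise with FGF2. Rgs2 was at 119.57, 94.30 and 104.10 CPM in Y/T dKD+FGF2, a range that overlaps that of Ctrl+FGF2. Its log2 fold change of 0.17 ± 0.08 was not called (adjusted p = 0.0992), but was called in 5 of 18 alternative settings, 2 of which left out the first Ctrl+FGF2 library (adjusted p = 0.00794) or the second Y/T dKD+FGF2 library (adjusted p = 0.0244). Rgs17 had a log2 fold change of 0.28 ± 0.14 (adjusted p = 0.134), with libraries that did not overlap. Rgs10, Rgs12, Rgs16 and Rgs19 had log2 fold changes from 0.04 to 0.12, none of them called.

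The osteoblast list at d5 summed to 31072 to 33086 CPM in Ctrl+vehicle, 15843 to 17596 CPM in Ctrl+FGF2 and 21873 to 23235 CPM in Y/T dKD+FGF2, mostly Col1a1 (31886, 16629 and 21817 CPM). With FGF2 at d5, 2 of its 6 genes rose and 4 fell, and with the knockdown all 6 rose. Runx2 (137, 179 and 199 CPM) and Sp7 (35.7, 44.4 and 70.0 CPM) had their lowest mean in Ctrl+vehicle. The mural cell list summed to 2166 to 2293, 2823 to 3226 and 2286 to 2446 CPM and was highest in Ctrl+FGF2. That sum is mostly Acta2 (2004, 2798 and 2118 CPM). Tagln (85.9, 84.4 and 76.1 CPM) and Cspg4 (132, 131 and 158 CPM) did not have their highest mean in Ctrl+FGF2. Of the 6 mural cell genes tested, FGF2 raised 3 and lowered 0, and the knockdown raised 2 and lowered 3. Neuron markers summed to 7.73 CPM or less. Their part in the d5 values of the Rgs genes was not tested.

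Against Ctrl+vehicle at d5, 6 of the 8 tested members were called in Y/T dKD+FGF2, where 41.8% of all genes were called, 20.7% higher and 21.1% lower. Rgs2 (1.60 ± 0.09), Rgs16 (2.17 ± 0.13), Rgs17 (0.72 ± 0.15), Rgs3 (0.49 ± 0.06) and Rgs12 (0.47 ± 0.07) were higher and Rgs19 (-0.34 ± 0.09, adjusted p = 0.00660) was lower. Rgs4 was not called, as given above, nor was Rgs10 (0.11 ± 0.05, adjusted p = 0.0979), which was called only without the second Ctrl+vehicle library (adjusted p = 0.0326).

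The effect of FGF2 was then compared between the days in a fit of all 18 libraries. Of the 8 members tested other than Rgs4, 5 had an effect that differed, where 60.9% of 14198 genes did, 31.8% with a higher and 29.1% with a lower log2 fold change at d5. Rgs3 differed most, by 1.87 ± 0.10 on the log2 scale (adjusted p = 1.49e-15), since it fell at d2.5 and rose at d5. Rgs12 also fell at d2.5 and rose at d5, and differed by 0.74 ± 0.10 (adjusted p = 2.93e-07). For Rgs2, which was called at d5 and not at d2.5, the difference was 1.29 ± 0.16 (adjusted p = 4.38e-08). For Rgs10, which fell at d2.5 and was not called at d5, it was 0.69 ± 0.11 (adjusted p = 3.95e-06). Rgs19 had the opposite sign, at -0.58 ± 0.11 (adjusted p = 4.33e-05). The effect on Rgs16 differed by -0.01 ± 0.19 (adjusted p = 0.978), so that a difference of the size seen for the called members was not detected there. Rgs17 differed by 0.32 ± 0.19 (adjusted p = 0.146). For Rgs4 the difference was 1.125 ± 0.15, a description, since the d2.5 part of it chose the gene.

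The effect of the knockdown differed between the days for 2 of the 8 members other than Rgs4, where 20.9% of genes did, 11.6% with a higher and 9.35% with a lower log2 fold change at d5. These were Rgs2 (0.48 ± 0.16, adjusted p = 0.0323) and Rgs3 (0.33 ± 0.12, adjusted p = 0.0408). Neither call was stable. Leaving out 1 library ended the call of Rgs2 in 7 of 18 cases (the first and the second Ctrl+FGF2 and the first and the third Y/T dKD+FGF2 libraries of d2.5, and the second and the third Ctrl+FGF2 libraries and the first Y/T dKD+FGF2 library of d5), with adjusted p up to 0.102. That of Rgs3 ended in 11 of 18, with each of the 6 Ctrl+FGF2 and Y/T dKD+FGF2 libraries of d2.5, the 3 Ctrl+FGF2 libraries of d5 and the first and second Y/T dKD+FGF2 libraries of d5 (adjusted p up to 0.117), and also with DESeq2 (adjusted p = 0.0788) and upper-quartile factors (adjusted p = 0.0532). The Rgs4 value, again a description, was -1.14 ± 0.16.

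Rgs5, best known as a marker of pericytes and the chromosomal neighbour of Rgs4, was too low for the tests within a day. Its reads at d2.5 were 8, 11 and 5 in the Ctrl+vehicle libraries, 2, 1 and 3 in Ctrl+FGF2 and 6, 10 and 14 in Y/T dKD+FGF2. Summed over libraries, Ctrl+FGF2 had 6 reads against 24 in Ctrl+vehicle, 3.998-fold lower for its depth (95% interval 1.59 to 11.96), and Y/T dKD+FGF2 had 30, 5.70-fold higher than Ctrl+FGF2 (2.34 to 16.8). At d5 the reads were 4, 9 and 7, then 6, 4 and 3, then 3, 12 and 6, which overlapped, and the ratios had intervals on both sides of 1. These intervals cover counting error only and not the spread between cultures. Rgs5 was tested at d2.5 in some alternative settings, and it was called in each that gave it an adjusted p, lower with FGF2 in 10 of 10 (log2 fold change -2.29 to -1.66, adjusted p 0.00344 to 0.0332) and higher with the knockdown in 9 of 9 (2.15 to 2.78, adjusted p 0.000402 to 0.0113). Against Ctrl+vehicle the knockdown group was called in 0 of 10 (adjusted p 0.124 to 0.553), and at d5 no contrast was called in the 3 settings that tested it. Except in the fit without a filter and in DESeq2, which sets its own, Rgs5 entered these fits through the libraries in which it is high, so they are a description and add no support to the difference. In the fit of all 18 libraries the FGF2 effect on Rgs5 differed between days by 1.27 ± 0.80 (adjusted p = 0.178) and that of the knockdown by -1.72 ± 0.79 (adjusted p = 0.128), neither called. Rgs14, the R12 scaffold protein known from neurons, had 4 reads in all, 2 and 1 in the first 2 Y/T dKD+FGF2 libraries of d2.5 and 1 in the first Ctrl+FGF2 library of d5. With no more than 3 reads in any group, no difference could be read for it.

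RGS proteins act on G alpha subunits, and of 15 listed G alpha genes 10 were tested at d2.5 and 11 at d5. Over all genes tested, 67.6% were called with FGF2 at d2.5 (median log2 fold change 0.0022), 47.2% with FGF2 at d5 (0.016), 24.5% with the knockdown at d2.5 (0.0013) and 31.7% with the knockdown at d5 (0.0034), and the counts of each list stand beside these shares. With FGF2 at d2.5, 1 G alpha gene rose and 3 fell, 4 of 10 where 67.6% of all genes were called (median of those tested 0.0040), with Gnao1, a Go subunit, on which R4 proteins act, at -1.61 ± 0.04, Gnas, the Gs subunit, at -0.44 ± 0.03, and Gnaq at 0.25 ± 0.04. At d5, FGF2 raised 3 and lowered 1 of 11 (47.2% of all genes, median 0.051). The knockdown was called for 4 of 10 at d2.5, 1 higher and 3 lower (24.5% of all genes, median -0.06), and for 7 of 11 at d5, 1 higher and 6 lower (31.7% of all genes, median -0.11). Gnao1 was among those lowered by the knockdown on both days (-0.36 ± 0.05 and -0.25 ± 0.04). Of 16 listed G beta and G gamma genes, FGF2 raised 2 and lowered 3 of 9 tested at d2.5 (67.6% of all genes), and raised 4 and lowered 2 of 10 tested at d5 (47.2%), among them Gng7 at 1.22 ± 0.15. The knockdown raised 1 and lowered 1 of this list at d2.5 (24.5% of all genes), and raised 2 at d5 (31.7%). The medians of the list were -0.09 and 0.23 with FGF2 and -0.05 and 0.014 with the knockdown.

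Among the effectors, 13 adenylyl cyclases and phospholipases C beta were listed and 8 were tested. With FGF2 at d2.5, 2 rose and 6 fell, 8 of 8 where 67.6% of all genes were called (median -0.43). They include Plcb1, which cleaves membrane phosphoinositides downstream of Gq (-1.04 ± 0.08), and the adenylyl cyclases Adcy9 (-0.95 ± 0.11) and Adcy7 (0.42 ± 0.07). Adcy8 rose by 1.33 ± 0.26 at a low level, from 0.897 to 2.27 CPM. With FGF2 at d5, 2 rose and 3 fell (47.2% of all genes called, median -0.13), Adcy6 higher at 0.41 ± 0.05, Plcb1 again lower at -1.10 ± 0.12 and Adcy7 now lower at -0.56 ± 0.08. The knockdown lowered 1 at d2.5, Plcb3 (-0.15 ± 0.04, list median -0.0024), where 24.5% of all genes were called, and raised 3 and lowered 2 at d5 (31.7% of all genes, median -0.06), where Plcb1 (0.78 ± 0.13) and Adcy7 (0.44 ± 0.08) were higher.

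Of the kinases that desensitise receptors, the arrestins and other regulators of G proteins, 10 of 14 were tested. FGF2 raised 4 and lowered 5 at d2.5, 9 of 10 where 67.6% of all genes were called (median -0.12). Gpsm2 and Gpsm1, which hold Gi subunits in their GDP form, moved apart, at 0.90 ± 0.05 and -1.42 ± 0.08, and at d5 both had the other sign, at -1.07 ± 0.06 and 0.42 ± 0.06. In all, 1 rose and 3 fell with FGF2 at d5 (47.2% of all genes called, median -0.02). The knockdown lowered 3 at d2.5 (24.5% of all genes called, median -0.12), and at d5, where 31.7% of all genes were called, raised 1, Gpsm2 (0.60 ± 0.06), and lowered 3, among them the receptor kinase Grk5 (-0.79 ± 0.11) and the arrestin Arrb1 (-0.41 ± 0.06), with a median of -0.14.

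The receptors covered the widest range. Of 31 listed, 17 were tested at d2.5 and 18 at d5. FGF2 raised 7 and lowered 8 at d2.5, 15 of 17 where 67.6% of all genes were called (median -0.14). Pth1r, the receptor for parathyroid hormone in osteoblasts, was at 23.2 CPM in Ctrl+vehicle and 0.554 CPM in Ctrl+FGF2, a log2 fold change of -5.37 ± 0.18, and the sphingosine 1-phosphate receptor S1pr1 was at -2.35 ± 0.06. Calcrl, part of the receptors for CGRP and adrenomedullin, and F2rl1, a receptor cut by proteases, rose by 2.37 ± 0.10 and 2.31 ± 0.27. At d5, FGF2 raised 5 and lowered 6, 11 of 18 where 47.2% of all genes were called (median 0.061), with the chemokine receptor Cxcr4 at 1.55 ± 0.24, Lpar2 at 0.81 ± 0.12, the endothelin receptor Ednra at -1.20 ± 0.10 and Pth1r at -0.98 ± 0.08.

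With the knockdown at d2.5, 3 receptors rose and 2 fell (24.5% of all genes called, median 0.071), Ednra the most, at 0.97 ± 0.13. At d5, 7 rose and 7 fell of 18 (31.7% of all genes called, median 0.16). Ednra went from 11.7 to 46.2 CPM (1.97 ± 0.09) and Pth1r rose by 0.79 ± 0.08, while Cxcr4 went from 3.84 to 0.736 CPM (-2.37 ± 0.27) and Calcrl was at -0.68 ± 0.24. The FGF2 and knockdown contrasts of a day share the Ctrl+FGF2 libraries, so a gene's values in them are not independent of each other.

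**Figure D4:**
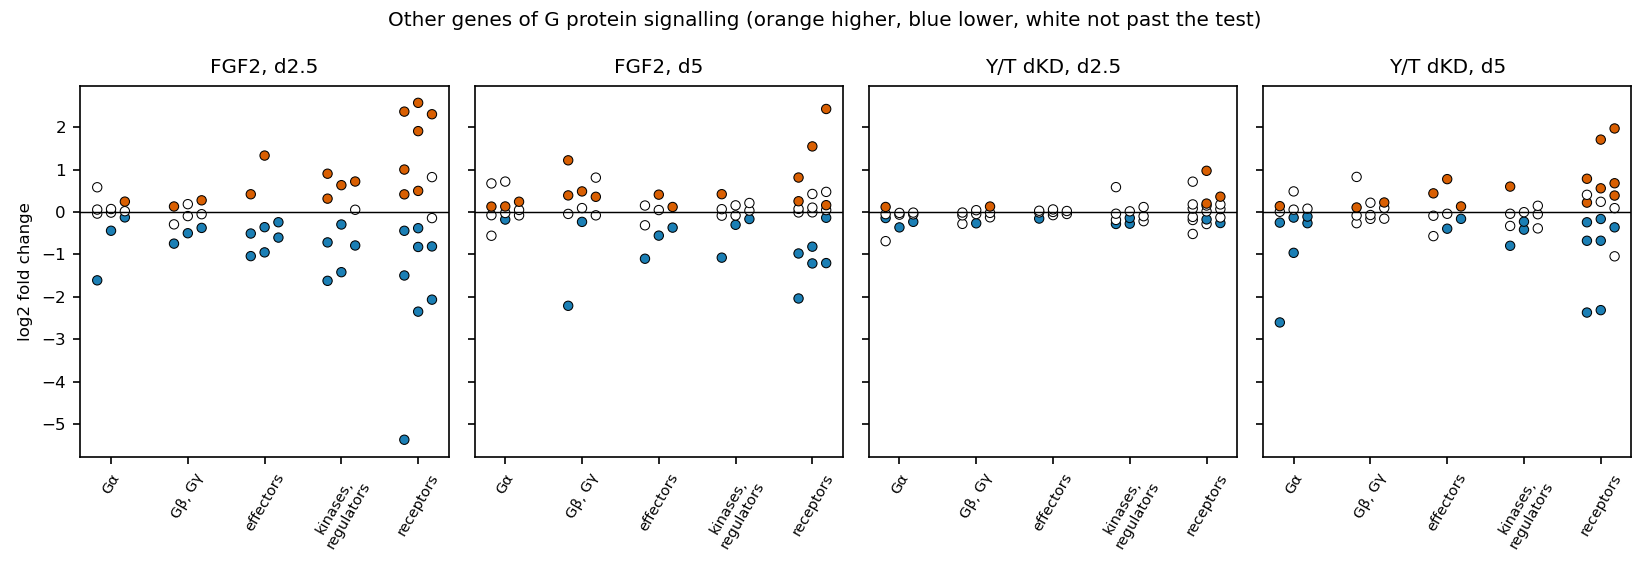
Log2 fold change (y axis) of each tested gene on 5 lists of G protein signalling genes (x axis), for FGF2 and for the Yap and Taz knockdown on each day. Orange points were called higher and blue points lower, and white points did not pass an adjusted p of 0.05. The receptors span from -5.37 to 2.58 with FGF2 at d2.5.

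The genes most like 3 members over the 6 group means were sought among 12907 genes, by the root mean square difference between log2 CPM profiles that were each centred on their own mean. For Rgs4 they were Mical1, an actin oxidising enzyme (0.300), Tbx2, a T-box transcription factor (0.321), and Pde10a, a phosphodiesterase of cyclic nucleotides (0.330), over a range of 3.26 in Rgs4 itself. Mical1 had means of 5.62, 1.82 and 3.16 CPM at d2.5 and 15.03, 11.1 and 16.4 CPM at d5, for the vehicle, FGF2 and knockdown groups. The d2.5 level of Mical1 with the knockdown thus stayed below Ctrl+vehicle, which that of Rgs4 did not. Tbx2 (1.01, 0.304 and 1.11 CPM) and Pde10a (0.586, 0.297 and 0.844 CPM) were low at d2.5. At d5 Pde10a was at 4.14, 2.16 and 2.31 CPM, so its knockdown level stayed near Ctrl+FGF2, unlike that of Rgs4. For Rgs2 the nearest genes were Stac2 (0.207), Pdzrn4 (0.261) and Slc7a7 (0.310), with Stac2 at 8.73, 10.5 and 11.8 CPM at d2.5 and 46.9, 137 and 125 CPM at d5. Pdzrn4 and Slc7a7 were low at d2.5, with means of 0.282 to 0.398 CPM and 0.975 to 1.09 CPM. The nearest genes to Rgs16 were less close, Pik3r5 at 0.421, Card10 at 0.456 and Phex, an endopeptidase of osteoblasts and osteocytes, at 0.464. Each profile has 6 points that share the same 18 libraries, and it includes the step between days, which coincides with batch. The profile of Rgs4 holds the d2.5 values it was picked by, so its nearest genes are a description. Rgs5 was too low to be compared in this way.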

How the data were processed

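Bulk polyadenylated RNA was measured in 18 libraries of O9-1 cells. The authors deposited raw counts of reads per gene for each library, without normalization, in a layout with an unstranded column and a column for each strand. The submitters' processing notes name FastQC, STAR, Picard, featureCounts and the build mm10 without versions or roles, and a test of differential expression is not given in the sources used here. Of the stranded counts 96.0% to 96.6% were on the reverse strand, whose column was taken. Reads not counted on a gene, 27.0% to 34.4% of a library, were left out. They include reads that map to several places, and leaving these out lowers genes with near-identical copies. The counts used held 10377151 to 14698525 reads per library (median 12330911), and their intervals cover counting error only. Of the 55335 identifiers, 55154 matched GENCODE M21 (GRCm38) by the part before the version, which gave names, positions and exon lengths.

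Levels are CPM with 1 TMM scaling over 18 libraries. Tests used edgeR 4.0.16 in R 4.3.3 (quasi-likelihood, TMM, filterByExpr), with 9 libraries of a day in 1 fit and all 18 for differences between days. A gene is called at a Benjamini-Hochberg adjusted p under 0.05 over all genes tested. The SE is the absolute log2 fold change over the square root of F. DESeq2 1.42.0 was an alternative. The scripts were tested on simulated data. Figures were drawn with matplotlib 3.10.9.

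The members and lists were chosen with earlier results of these data known, and some genes first placed on the effector list are not reported here. The genes named are the 10 members, the siRNA targets, on each list of other signalling genes up to 2 called genes with the largest rises and falls whose mean log2 CPM reached 1, and the 3 genes most like Rgs2, Rgs4 and Rgs16. The other marker lists were neural crest, mesenchyme, osteoblast, mural cell, neuron, glia, endothelium, blood and epithelium. Alternatives were RLE and upper-quartile factors, DESeq2, no filter, at least 10 counts in every library, all 18 libraries in 1 fit, only the 2 groups compared, a replicate block, unstranded counts, a 2-fold minimum and leaving out each library. Same-numbered libraries of different groups deviated together little or not at all (r from -0.07 to 0.11 over 18 pairs), so the numbers were not taken as pairs. Differently numbered libraries gave r from -0.12 to 0.09. The highest value, 0.11, was that of the second Ctrl+vehicle and second Ctrl+FGF2 libraries of d5.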

Additional observations from a re-analysis of the deposited data

Results flagged for a closer look

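The effect of FGF2 differed between d2.5 and d5, by the test of the difference itself, for 5 members. On the log2 scale, d5 minus d2.5, the difference was 1.87 for Rgs3, 1.29 for Rgs2, 0.74 for Rgs12, 0.69 for Rgs10 and -0.58 for Rgs19. Rgs3 and Rgs12 were called on both days with opposite signs, whereas Rgs2 and Rgs19 were called at d5 only and Rgs10 at d2.5 only. All 5 stayed called in each of the 18 fits that left out 1 library. The effect of the knockdown differed for Rgs2, by 0.48, and for Rgs3, by 0.33, and both calls were lost in a good part of those fits, as given above. In this test 60.9% of all genes differed for FGF2 and 20.9% for the knockdown, and since each day is its own batch, day and batch cannot be told apart.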

How the results depend on the processing

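Of 1311 values of single members under alternative settings, 1260 were counted as unchanged and 24 lost and 12 gained a call. A further 15 changed sign, all of them between values that were not called. Unchanged means the same direction and the same side of the threshold. For Rgs4, in contrasts that hold the d2.5 values it was picked by, it means only a move smaller than the SD within groups. Its value between the knockdown and vehicle groups at d2.5, 0.074, fell to as low as -0.015 without 1 library. That change of sign is outside the 15. With a 2-fold minimum added, the members called fell to 2 for FGF2 at d2.5, 0 for the knockdown at d2.5 and 2 for the knockdown group against the vehicle group that day, to 2, 0 and 2 at d5, and to 2 and 0 for the differences between days. Leaving out 1 library gave 2 to 4 members for the knockdown at d2.5, with Rgs2 and Rgs5 added to Rgs16 and Rgs17 where it was 4. Rgs5 passed the filter there through the libraries in which it is high, so its call adds no support. For the difference of the knockdown effect between days the count was 0 to 2, which DESeq2 and upper-quartile factors put at 1. The sign changed for Rgs12 with the knockdown at d2.5 in unstranded counts (0.0046) and without 1 library (-0.060 to 0.032), for Rgs10 there without 1 library (-0.16 to 0.0090), for Rgs19 between the knockdown and vehicle groups at d2.5 with all 18 libraries in 1 fit (0.011) and without 1 library (-0.022 to 0.012), and for the difference of the FGF2 effect on Rgs16 between days with upper-quartile factors (0.081), without a filter (0.0087) and without 1 library (-0.11 to 0.16). The causes were not tested.

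Replicate numbers are shared between groups but were not taken as pairs. A replicate block gave 3226 called genes for the knockdown at d2.5 and 4354 at d5, near the 3345 and 4220 without it, and the same number of members, 2, for the former. With the block Rgs2 was called for the knockdown at d5 (0.17, adjusted p = 0.0170), and no other member gained or lost a call. Depth limits Rgs5 and Rgs14, which had at most 30 and 3 reads in a group.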

Other observations

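Of 14 further genes of the family and its binding proteins, Rgs1, Rgs18, Rgs21, Rgs22 and Rgs7bp had no read in any library. Rgs9, an R7 protein known from the retina and striatum, passed the filter on both days, with group means of 1.64 to 2.65 CPM, and was called in no contrast. Rgs20, an RZ relative of Rgs17 and Rgs19, was tested at d2.5, where its means were 0.726, 0.868 and 0.458 CPM in the vehicle, FGF2 and knockdown groups, and it was not called. Rgs8, an R4 protein of the brain, was below the filter, with means of 0.136, 0.651 and 0.638 CPM at d2.5 and no more than 0.138 CPM at d5. The 14 were taken from the names of the family and not for their values.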
